A study of Mus musculus with 9 samples.

Results

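The genes described are 52 that encode the proteins of DNA replication origins and forks and were taken by symbol from a list written with earlier results of these data known. The rule itself uses no measured value. All 52 were found among the 24060 genes of the expression table, and all 52 were among the 11330 genes tested, those whose highest level over the libraries exceeded 1 TPM (a level corrected for transcript length and with a fixed sum per library). They were sorted by role into the origin recognition complex, licensing factors and their inhibitor, the MCM2-7 helicase, helicase activation, polymerases and primase, the sliding clamp and its loaders, single-strand DNA binding, Okazaki fragment maturation, fork protection and chromatin at the fork.

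Splenocytes were taken from R7-I mice, R7-II mice and R7-III mice, transnuclear lines on a Rag2+/+ CD90.2+ BALB/c background. Each line was cloned by nuclear transfer from its own founder CD8 T cell specific for the ROP7 peptide of Toxoplasma gondii and carries the rearranged receptor genes of that cell, so the lines differ in receptor while Rag2 is intact in all of them. Every group was cultured overnight with IL-2 at 10 ng/ml and the ROP7 peptide at 10 µM, and live cells positive for CD3, CD8 and the H-2Ld tetramer loaded with this peptide were then sorted. The study describes R7-I as the clone that binds the peptide most strongly, followed by R7-III and then R7-II, from measurements on purified proteins. In its cell adhesion assay, R7-I and R7-III had similar affinities and R7-II a lower one. There were 9 libraries, 3 per clone, which the labels call biological replicates without saying whether they came from separate mice, so the p-values measure the spread between these libraries, and each clone stands for 1 receptor and 1 mouse line. Unstimulated cells were not analysed here, so none of the levels below can be set against a resting state.

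Before a cell copies its genome, the origin recognition complex and the licensing factors CDC6 and CDT1 load a ring of MCM proteins onto DNA at each origin. In S phase, kinases recruit CDC45 and the GINS complex to this ring to form the active helicase, and polymerases, held on DNA by the PCNA clamp, then copy both strands. In T cells, strong stimulation through the receptor is known to bring resting cells into the cell cycle, and many of these genes are transcribed as cells approach S phase, in part through E2F transcription factors.

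Replication genes were lowest in R7-II, intermediate in R7-I and highest in R7-III. Their summed level lay between 4759 and 5045 TPM in the R7-I libraries, between 3287 and 3666 TPM in R7-II and between 6214 and 6468 TPM in R7-III. In 46 of the 52 genes all R7-II libraries were below all R7-I libraries and these below all R7-III libraries, an order that 5.80% of all genes tested showed. The 6 exceptions were Orc3, Orc4, Orc5, Gins4, Cdc7 and Rpa1. In bulk samples, fewer replicating cells and less RNA per cell cannot be told apart.

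**Figure D1:**
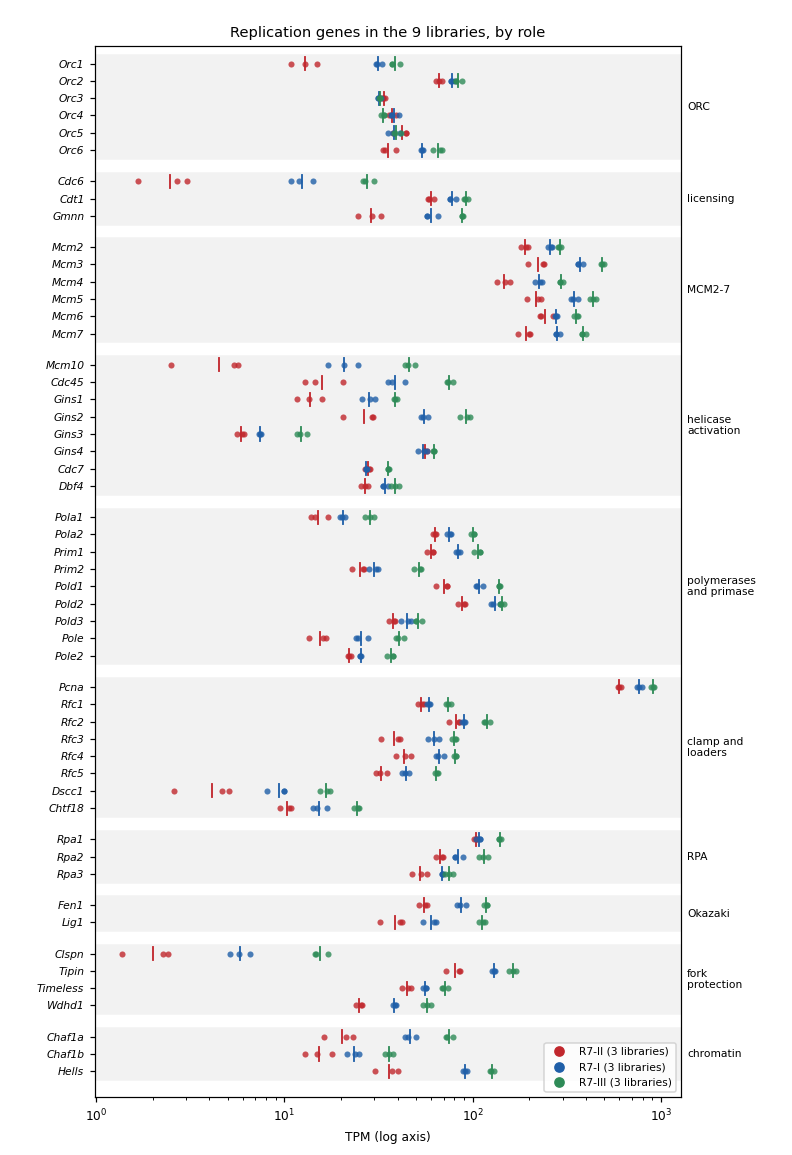
Level of each of the 52 replication genes in the 9 libraries, in TPM on a log axis, with genes grouped by role on the vertical axis. Points are libraries (red R7-II, blue R7-I, green R7-III, 3 each) and vertical bars are the means of the clones, and 46 of the 52 genes run from R7-II through R7-I to R7-III without overlap.

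Differences were tested with limma on log2(TPM + 1), with Benjamini-Hochberg adjustment over all 11330 genes and a threshold of 0.01. Between R7-II and R7-I, 44 of the 52 genes were lower in R7-II and 0 were higher, whereas 15.5% of all genes tested were lower and 40.6% higher. At an unadjusted p under 0.05, 46 were lower and 0 higher. The share of all genes at that unadjusted threshold, here and below, was not counted. The median log2 fold change was -0.54 over the 52 genes and 0.17 over all genes, and the 52 ranged from -2.03 to 0.14. Against R7-III, 48 were lower in R7-II and 0 were higher, with 18.0% and 35.6% of all genes, and with 49 and 1 at an unadjusted p under 0.05. Here the median was -0.96, against 0.12 over all genes, in a range from -3.15 to 0.16. Both comparisons use the same R7-II libraries.

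R7-III exceeded R7-I in 37 of the 52 genes and was lower in 0, against 6.96% and 1.45% of all genes tested. The counts at an unadjusted p under 0.05 were 48 and 1. The median log2 fold change was 0.39 over the 52 genes and 0.04 over all genes, with a range from -0.18 to 1.27. This count rested on single libraries more than the others did, since 24 of the genes passed when R7-I replicate 1 was left out and 26 when R7-III replicate 3 was. Changes beyond 2-fold were seen in 10 genes between R7-II and R7-I (1.27% of all genes were lower to this extent), in 24 between R7-II and R7-III (2.81%) and in 3 between R7-III and R7-I (0.838% were higher), which were Cdc6, Mcm10 and Clspn.

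The median over all genes depends on the scaling of the libraries. Division by a median-of-ratios factor moved it from 0.17 to 0.0084 between R7-II and R7-I and from 0.12 to 0.0042 between R7-II and R7-III. Under that scaling the median of the replication genes was -0.71 and -1.07, and the share of higher genes among all calls went from 72.4% to 47.7% and from 66.4% to 47.9%. Between R7-III and R7-I the median of the replication genes became 0.34, and the share of higher calls went from 82.8% to 59.0%.

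**Figure D2:**
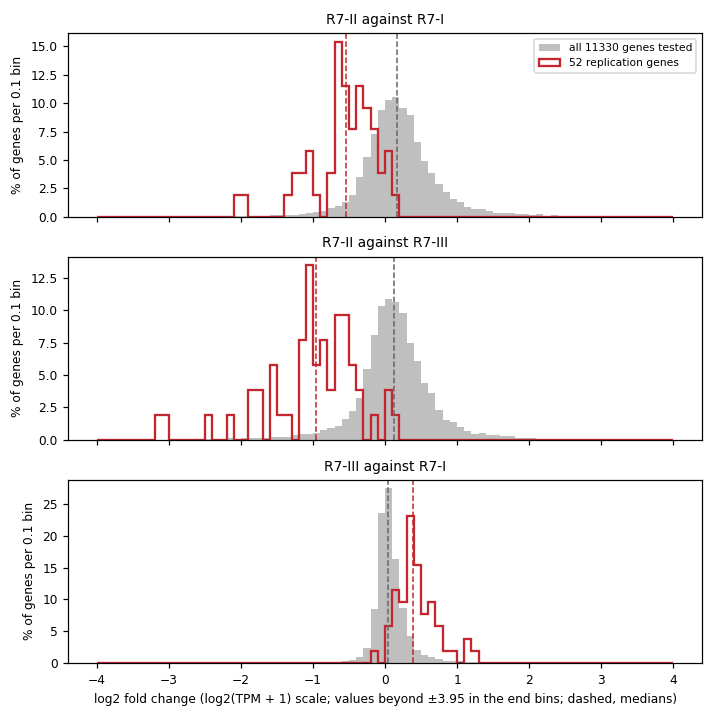
Distribution of log2 fold changes on the log2(TPM + 1) scale in the 3 comparisons, as a percentage of genes per bin of 0.1. Grey bars are all 11330 genes tested, the red outline is the 52 replication genes, and dashed lines are medians, which for the replication genes lie at -0.54, -0.96 and 0.39 and for all genes at 0.17, 0.12 and 0.04.

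The sorted cells carried the markers of CD8 T cells. Their 7 markers (Cd3d, Cd3e, Cd3g, Cd8a, Cd8b1, Lck and Cd2) summed to between 1821 and 1851 TPM in R7-I, 2671 and 2692 in R7-II and 1972 and 2045 in R7-III. RNA of other cells was low, and the sums of B cell, MHC class II and myeloid markers were highest in R7-II. The 7 B cell markers summed to 8.07 to 15.1 TPM in R7-I, 34.0 to 70.5 TPM in R7-II and 4.88 to 7.34 TPM in R7-III, and all 7 passed the test against both other clones. For 7 MHC class II genes the ranges were 33.0 to 50.4, 115 to 186 and 25.0 to 29.2 TPM, again with all 7 higher in R7-II in each comparison, and for 6 myeloid markers they were 0.63 to 2.08, 19.0 to 74.1 and 2.25 to 3.91 TPM, with 5 higher in each. The 3 CD4 T cell markers summed to 3.15 to 3.75 TPM in R7-I, 3.28 to 4.94 in R7-II and 5.1 to 7.44 in R7-III. The sum of 3 NK cell markers reached 0.17 TPM at most. R7-II replicate 1 was the lowest R7-II library in 43 of the 52 replication genes, replicate 2 in 4 and replicate 3 in 5. In the same order these libraries had B cell sums of 70.5, 34.0 and 53.8 TPM, MHC class II sums of 186, 115 and 184 TPM and myeloid sums of 36.3, 19.0 and 74.1 TPM. The lowest library was thus the highest in B cell markers and, narrowly, in MHC class II genes, but not in myeloid markers. The part of other cells in the results below was not tested. Without R7-II replicate 1, 42 replication genes were lower in R7-II relative to R7-I and 48 relative to R7-III, with medians of -0.48 and -0.91. Higher calls then made up 71.5% and 64.9% of all calls in these comparisons.

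Promoter sequences were examined because genes that move together may share letters near their start. RefSeq promoters of the GRCm38.p6 build, which cover 250 bases before and 50 bases after a transcript start, were found for 42 of the 52 genes. The letters searched were those of E2F sites, TTTCGCGC, TTTGGCGC, TTTCCCGC and TTTGCCGC, on either strand, and CCAAT, the letters of NF-Y sites, on either strand. E2F letters stood in 17 of the 42 promoters (40.5%), against 4.89% of the 8504 tested genes with a promoter and 2.60% of all 27025 genes of the promoter table. With only the bases before the start the share was 23.8%, against 4.09% of the tested genes. CCAAT stood in 57.1% of the 42 and in 43.4% of the tested genes. Between R7-II and R7-III the median log2 fold change was -1.01 in the 17 genes with E2F letters and -0.69 in the 25 without them, with ranges from -3.06 to 0.07 and from -3.15 to 0.16 that overlap over nearly their whole length.

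The sequences below are the 250 bases before the start, 5′ to 3′ on the strand of the gene, with E2F letters of either strand in capitals. They were chosen to set genes with the letters and different changes beside each other, together with a gene without the letters. Cdc6, whose promoter also holds the letters and which had the largest ratio between clones, is not shown. Orc1 (plus strand, chr4:108579204-108579453) was lower in R7-II than in either other clone, while Orc3 (minus strand, chr4:34614943-34615192), a subunit of the same complex, did not pass in any comparison. Mcm6 (minus strand, chr1:128359706-128359955) holds 3 matches, of which 1 pair overlaps on opposite strands, and had the smallest changes of the helicase ring in R7-II. Rfc3 (minus strand, chr5:151651209-151651458), a clamp loader subunit, holds them close to its start, and Mcm10 (minus strand, chr2:5012792-5013041), which had the most negative fold change of all 52 genes, holds none.
Orc1: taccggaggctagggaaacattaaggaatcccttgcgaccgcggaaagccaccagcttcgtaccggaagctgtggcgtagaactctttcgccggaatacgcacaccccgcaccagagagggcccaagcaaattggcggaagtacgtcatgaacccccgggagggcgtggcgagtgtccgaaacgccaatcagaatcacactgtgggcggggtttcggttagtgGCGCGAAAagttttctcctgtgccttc
Orc3: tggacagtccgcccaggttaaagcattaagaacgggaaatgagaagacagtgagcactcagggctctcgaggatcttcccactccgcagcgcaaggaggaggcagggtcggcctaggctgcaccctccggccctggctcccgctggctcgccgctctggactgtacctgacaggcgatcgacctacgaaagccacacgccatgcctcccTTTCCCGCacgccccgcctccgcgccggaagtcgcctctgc
Mcm6: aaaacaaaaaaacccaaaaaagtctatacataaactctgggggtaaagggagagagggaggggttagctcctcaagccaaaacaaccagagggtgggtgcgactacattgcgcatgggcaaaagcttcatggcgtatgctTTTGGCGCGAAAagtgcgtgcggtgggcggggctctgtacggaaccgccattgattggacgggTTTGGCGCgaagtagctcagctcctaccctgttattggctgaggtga
Rfc3: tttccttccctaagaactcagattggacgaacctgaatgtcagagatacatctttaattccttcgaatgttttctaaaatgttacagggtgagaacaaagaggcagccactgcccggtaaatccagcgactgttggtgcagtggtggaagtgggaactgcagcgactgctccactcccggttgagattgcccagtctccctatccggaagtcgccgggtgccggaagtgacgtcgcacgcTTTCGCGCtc
Mcm10: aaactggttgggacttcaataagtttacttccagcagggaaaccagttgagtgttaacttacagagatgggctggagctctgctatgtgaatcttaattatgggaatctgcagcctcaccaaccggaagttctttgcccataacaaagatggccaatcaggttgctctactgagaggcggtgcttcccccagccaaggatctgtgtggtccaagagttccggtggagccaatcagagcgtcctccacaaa

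A match of letters is a description of the sequence and no evidence of binding. The letters begin 27 bases before the start in Orc1 and 41 in Orc3, and the change of Orc3 was close to 0 although it holds them. The window of Orc1 lies within the span annotated for the gene, since another transcript begins upstream of it.

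The origin recognition complex, which marks origins and anchors the loading of the helicase, split into genes that differed between the clones and genes that did not pass. Orc1, Orc2 and Orc6 were lower in R7-II than in each of R7-I and R7-III, 3 of 6 in each comparison, while Orc3, Orc4 and Orc5 did not pass. None of the 6 passed between R7-III and R7-I in limma, where Orc1, Orc2 and Orc6 were higher and Orc4 lower at an unadjusted p under 0.05. Orc6, whose adjusted p of 0.01003 was just above the threshold, passed there without R7-II replicate 2 or 3 (adjusted p = 0.00239 and 0.00912 from limma), with a pseudocount of 5 (0.00945), with only genes of at least 1 TPM in every library (0.00828) and in a fit of R7-I and R7-III alone, 6 libraries (0.00382). Orc1 passed in that last fit (0.00646) and in no other alternative run.

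Orc1, on chromosome 4 from 108575705 to 108616030 of mm10, encodes the largest subunit, an ATPase whose amount is known to vary over the cell cycle. It was at 31.2, 32.8 and 30.7 TPM in R7-I, 10.9, 14.9 and 12.9 in R7-II and 37.5, 37.3 and 41.2 in R7-III, in the order of the replicates here and below. The R7-II libraries were well below the other 6. On the log2 scale R7-II differed by -1.24 ± 0.0909 (standard error, as below) from R7-I and by -1.52 ± 0.0909 from R7-III (adjusted p = 1.12e-06 and 3.01e-07, limma), and mean levels were 2.45 and 3.00 times higher in the other clones. Orc2, the most abundant subunit, was at 77.1, 76.3 and 79.8 TPM in R7-I, 66.2, 63.8 and 68.9 in R7-II and 81.5, 81.2 and 87.3 in R7-III. It changed far less, with log2 fold changes of -0.23 ± 0.0417 against R7-I and -0.33 ± 0.0417 against R7-III (adjusted p = 6.73e-04 and 5.74e-05, limma), and 24.0% of its annotated exon bases overlap Nif3l1 on the opposite strand, whose reads could not be told apart in these unstranded libraries. Orc6, which is the least related in sequence to the other subunits, was at 53.3, 54.0 and 54.4 TPM in R7-I, 34.0, 39.0 and 33.2 in R7-II and 68.8, 61.6 and 66.9 in R7-III, again without overlap.

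Orc4, an ATPase subunit of the same ring, had the most positive change of all 52 genes against R7-III. It was at 37.1, 40.7 and 36.9 TPM in R7-I, 37.0, 36.2 and 39.2 in R7-II and 34.0, 32.7 and 33.8 in R7-III. Its log2 fold change was -0.03 ± 0.0496 relative to R7-I and 0.16 ± 0.0496 relative to R7-III (adjusted p = 0.629 and 0.0175, limma), and R7-II and R7-I overlapped. With median-of-ratios scaling Orc4 passed as lower in R7-II than in R7-I (log2 fold change -0.20), and the small positive changes of Orc3 and Orc5 in R7-II turned negative, to -0.089 and -0.033 against R7-I and to -0.052 and -0.034 against R7-III. Orc3 was nearly level, at 31.8 ± 0.56 TPM in R7-I, 33.8 ± 0.437 in R7-II and 32.1 ± 0.367 in R7-III (n = 3 libraries each, mean ± SD). Within a library, the most abundant subunit exceeded the least abundant by 2.42 to 2.60 times in R7-I, 4.27 to 6.08 times in R7-II and 2.51 to 2.70 times in R7-III. The wider spread in R7-II was that of Orc1, since Orc1 stood at 0.95 to 1.04 of the level of Orc3 in R7-I, 0.33 to 0.44 in R7-II and 1.15 to 1.28 in R7-III.

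The licensing genes Cdc6 and Cdt1, whose products bring the MCM ring to DNA, and Gmnn, which encodes geminin, the inhibitor of CDT1, were lower in R7-II than in either other clone, 3 of 3 in each comparison. All 3 were also higher in R7-III than in R7-I, and only Cdc6 passed there without R7-I replicate 1 or R7-III replicate 2 (Cdt1 at an adjusted p of 0.0223 and 0.0143 and Gmnn at 0.0116 and 0.0103 from limma). Cdt1 further missed the threshold with R7-I replicate 3 or R7-III replicate 1 or 3 left out, with an adjusted p of at most 0.0188 from limma.

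Cdc6, on chromosome 11 from 98907709 to 98923942 of mm10, had the largest ratio between clones of all 52 genes. It was at 10.9, 14.2 and 12.03 TPM in R7-I, 1.68, 3.06 and 2.69 in R7-II and 26.8, 26.2 and 29.9 in R7-III. No libraries of different clones overlapped, and the mean level was 4.99 times higher in R7-I and 11.2 times higher in R7-III than in R7-II. The log2 fold change was -1.96 ± 0.143 and -3.06 ± 0.143 (adjusted p = 1.11e-06 and 8.65e-08, limma), and 1.10 ± 0.143 for R7-III against R7-I (adjusted p = 6.43e-04, limma).

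Cdt1 was the most abundant of the group and the one that changed least, at 76.0, 81.7 and 76.2 TPM in R7-I, 57.9, 59.0 and 62.4 in R7-II and 90.8, 90.4 and 94.5 in R7-III. Its change in R7-II on the log2 scale was -0.38 ± 0.042 relative to R7-I and -0.61 ± 0.042 relative to R7-III (adjusted p = 1.94e-05 and 6.58e-07, limma). Gmnn was at 57.3, 65.2 and 57.2 TPM in R7-I, 24.6, 32.5 and 29.3 in R7-II and 88.2, 88.5 and 87.5 in R7-III, with log2 fold changes of -1.04 ± 0.0851 and -1.59 ± 0.0851 (adjusted p = 2.40e-06 and 1.63e-07, limma). The balance of the transcripts of factor and inhibitor thus differed between the clones, and these data hold no protein levels. The ratio of Cdt1 to Gmnn was 1.25 to 1.33 in R7-I, 1.82 to 2.35 in R7-II and 1.02 to 1.08 in R7-III, and the ratio of Cdc6 to Cdt1 was 0.143 to 0.173, 0.029 to 0.052 and 0.290 to 0.316. These ratios, like the others of partner genes below, were picked after the values had been seen and were not tested.

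The MCM2-7 genes, which encode the ring that unwinds DNA, were among the most abundant of the 52, all with means above 100 TPM. All 6 were lower in R7-II than in each of R7-I and R7-III, with log2 fold changes from -0.73 to -0.20 and from -1.13 to -0.55, and 5 were higher in R7-III than in R7-I, where Mcm2 did not pass (adjusted p = 0.0113, limma). Without R7-I replicate 1 the last count was 2, Mcm4 and Mcm7, and it was 3 without R7-I replicate 3 or R7-III replicate 2 or 3, 4 without R7-III replicate 1, and 6 without R7-II replicate 1 or 2, where Mcm2 was added. Their summed level lay between 1711 and 1821 TPM in R7-I, 1108 and 1289 in R7-II and 2209 and 2307 in R7-III.

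Mcm3, on chromosome 1 from 20802966 to 20820312 of mm10, was the most abundant of the ring and the most reduced in R7-II. It was at 361, 387 and 363 TPM in R7-I, 196, 238 and 236 in R7-II and 483, 483 and 496 in R7-III. The clones did not overlap, and the log2 fold change was -0.73 ± 0.0642 relative to R7-I and -1.13 ± 0.0642 relative to R7-III (adjusted p = 3.68e-06 and 2.26e-07, limma). Mcm6, on chromosome 1 from 128331575 to 128359705, was at 272, 282 and 277 TPM in R7-I, 231, 268 and 228 in R7-II and 345, 356 and 364 in R7-III, so that its highest R7-II library came close to R7-I. Its log2 fold change of -0.20 ± 0.0536 against R7-I passed narrowly (adjusted p = 0.00782, limma) and did not pass with any library left out other than R7-II replicate 2 (adjusted p of 0.0111 to 0.0336), whereas that against R7-III was -0.55 ± 0.0536 (adjusted p = 8.11e-06, limma).

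Mcm2, Mcm4, Mcm5 and Mcm7 lay between these, with mean ratios of R7-III to R7-II of 1.53, 2.01, 2.02 and 2.02. Despite the shift in level, the spread of levels within the ring was similar in all clones. The most abundant of the 6 exceeded the least abundant by 1.59 to 1.69 times in R7-I, 1.58 to 1.72 times in R7-II and 1.67 to 1.70 times in R7-III. The order within the ring did differ, since Mcm3 stood at 1.31 to 1.37 of the level of Mcm6 in R7-I and 1.35 to 1.40 in R7-III but at 0.85 to 1.03 in R7-II.

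Genes of helicase activation spanned the widest range of all roles. They comprise Cdc45 and the GINS subunits Gins1 to Gins4, which complete the active helicase, Mcm10, which is needed for it to start moving, and Cdc7 with its activating subunit Dbf4, the kinase that phosphorylates the ring. Of these 8 genes, 6 were lower in R7-II than in R7-I, 7 were lower than in R7-III, and 6 were higher in R7-III than in R7-I. The first count was 5 without R7-I replicate 1 or 3, where Gins3 missed the threshold (adjusted p = 0.0106 both times, limma). The third was 3 (Cdc45, Gins3 and Cdc7) without R7-I replicate 1 or R7-III replicate 1 or 3, and 4 without R7-I replicate 3 or R7-III replicate 2.

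Mcm10, on chromosome 2 from 4990724 to 5012791 of mm10, had the most negative log2 fold change of all 52 genes. It was at 17.2, 24.7 and 20.6 TPM in R7-I, 2.49, 5.66 and 5.40 in R7-II and 45.3, 43.7 and 49.3 in R7-III. R7-II replicate 1 was the lowest library, and no clones overlapped. The log2 fold change was -2.03 ± 0.214 relative to R7-I and -3.15 ± 0.214 relative to R7-III (adjusted p = 1.35e-05 and 6.27e-07, limma), and mean levels were 4.61 and 10.2 times higher in those clones. R7-III exceeded R7-I by 1.12 ± 0.214 (adjusted p = 0.00525, limma), a call lost without R7-I replicate 1 or 3 or any 1 R7-III library, with an adjusted p of 0.0203 to 0.0294. Cdc45 was at 35.7, 43.5 and 37.3 TPM in R7-I, 12.8, 20.4 and 14.6 in R7-II and 73.9, 72.6 and 78.4 in R7-III, and its mean was 4.70 times higher in R7-III than in R7-II.

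The GINS subunits form a complex of 4 in equal number, and their transcripts did not shift together. Gins2 was at 53.1, 57.6 and 54.4 TPM in R7-I, 20.4, 29.6 and 29.1 in R7-II and 97.3, 85.4 and 93.4 in R7-III, with log2 fold changes of -1.05 ± 0.116 against R7-I and -1.78 ± 0.116 against R7-III (adjusted p = 1.83e-05 and 4.81e-07, limma), but 70.7% of its annotated exon bases overlap Gse1 on the opposite strand. Gins1 was at 28.2 ± 2.19, 13.7 ± 2.13 and 38.8 ± 0.886 TPM and Gins3 at 7.41 ± 0.0651, 5.88 ± 0.273 and 12.3 ± 0.777 TPM in R7-I, R7-II and R7-III (n = 3 libraries each, mean ± SD). Gins4 stood apart from them, at 55.0, 57.5 and 51.4 TPM in R7-I, 55.5, 57.2 and 55.0 in R7-II and 61.4, 62.3 and 62.4 in R7-III.

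R7-II and R7-I overlapped in Gins4, and R7-III lay just above them. Its log2 fold change was 0.03 ± 0.043 relative to R7-I, which became -0.14 with median-of-ratios scaling and -0.0079 without R7-I replicate 3, and -0.15 ± 0.043 against R7-III (adjusted p = 0.49 and 0.0114, limma). The latter passed when R7-I replicate 2 or 3 was left out (adjusted p of 0.00776 and 0.00492, limma) and with median-of-ratios scaling (0.000638). The ratio of Gins2 to Gins4 was 0.97 to 1.06 in R7-I, 0.37 to 0.53 in R7-II and 1.37 to 1.58 in R7-III. The kinase and its activator differed as well. Cdc7 was at 27.0, 27.0 and 27.4 TPM in R7-I and 26.8, 28.7 and 28.1 TPM in R7-II, which overlapped, and at 35.5, 35.6 and 35.9 TPM in R7-III, all above them, whereas Dbf4 was lower in R7-II than in R7-I (-0.34 ± 0.0528, adjusted p = 2.02e-04, limma). The log2 fold change of Cdc7 between R7-II and R7-I, 0.03 ± 0.0406, became -0.13 with median-of-ratios scaling. The ratio of Dbf4 to Cdc7 was 1.23 to 1.30 in R7-I, 0.947 to 0.972 in R7-II and 1.03 to 1.12 in R7-III, so that R7-III lay between the other clones.

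**Figure D3:**
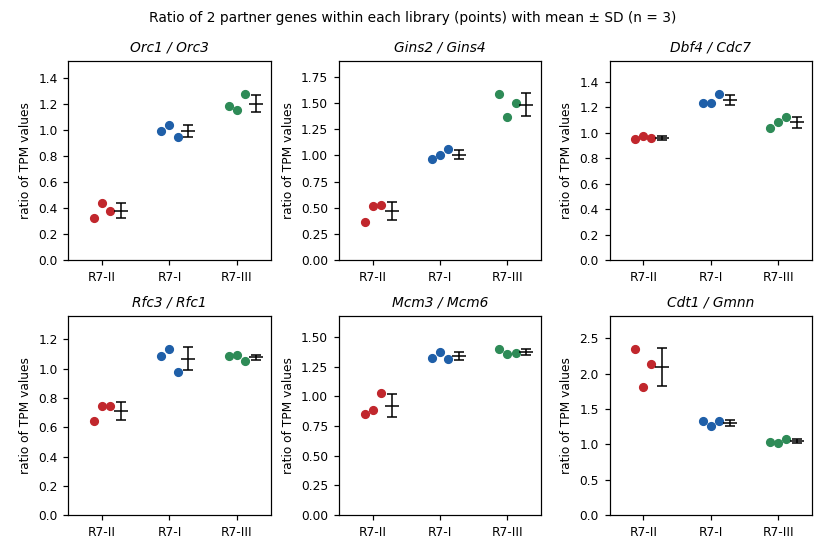
Ratio of the TPM values of 2 partner genes within each library, 1 panel per pair, with linear axes from 0. Points are libraries (red R7-II, blue R7-I, green R7-III) and bars are the mean ± SD (n = 3), and in R7-II Orc1, Gins2, Rfc3 and Mcm3 stand lower relative to their partners than in both other clones, while Cdt1 stands higher relative to Gmnn.

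The polymerase and primase genes showed smaller but uniform differences. DNA polymerase alpha with its primase starts each strand, polymerase delta extends mainly the lagging strand and polymerase epsilon mainly the leading strand. All 9 genes were lower in R7-II than in each of R7-I and R7-III, with log2 fold changes from -0.69 to -0.19 and from -1.35 to -0.44, and 7 were higher in R7-III than in R7-I. The first count was 6 without R7-I replicate 2, where Pold3, Pole2 and Prim2 missed the threshold (adjusted p = 0.0124, 0.0129 and 0.0195, limma), and 7 without R7-I replicate 3, and the last was 6 without R7-I replicate 1 or R7-III replicate 3, where Pola1 did (adjusted p = 0.0110 and 0.0107, limma).

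Pold2, which encodes the second subunit of polymerase delta, was the most abundant of the 9, at 127, 139 and 125 TPM in R7-I, 83.5, 90.8 and 89.8 in R7-II and 147, 142 and 139.5 in R7-III. R7-II was below the other clones, whose libraries did not overlap but lay close together. The log2 fold change was -0.56 ± 0.047 and -0.69 ± 0.047 against R7-I and R7-III (adjusted p = 2.66e-06 and 6.25e-07, limma), while that of R7-III relative to R7-I, 0.13 ± 0.047, did not pass (adjusted p = 0.0864, limma). Pole, on chromosome 5 from 110286319 to 110337468 of mm10, encodes the catalytic subunit of polymerase epsilon and changed most in R7-II. It was at 23.9, 27.9 and 24.8 TPM in R7-I, 13.6, 16.6 and 16.1 in R7-II and 40.0, 39.1 and 43.0 in R7-III, with log2 fold changes of -0.69 ± 0.0794 and -1.35 ± 0.0794 in R7-II and 0.66 ± 0.0794 in R7-III against R7-I (adjusted p = 2.45e-05, 2.74e-07 and 4.51e-04, limma).

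Pold3, an accessory subunit of polymerase delta, changed least against R7-III, at 41.4, 45.4 and 47.0 TPM in R7-I, 35.8, 38.2 and 38.7 in R7-II and 50.2, 49.8 and 53.6 in R7-III. Its log2 fold change was -0.24 ± 0.0548 relative to R7-I and -0.44 ± 0.0548 relative to R7-III (adjusted p = 0.00271 and 4.93e-05, limma), and the former missed the threshold without R7-I replicate 2 or 3 or R7-II replicate 1 (adjusted p of at most 0.0136). The primase subunits differed in which step was larger. Prim1 was at 83.4 ± 2.41, 60.0 ± 2.51 and 107 ± 4.20 TPM in R7-I, R7-II and R7-III, and Prim2 at 30.1 ± 1.78, 25.1 ± 1.89 and 51.6 ± 2.33 TPM (n = 3 libraries each, mean ± SD). For Prim2 the log2 fold change of R7-III against R7-I was 0.76 ± 0.0641 and that of R7-II against R7-I -0.25 ± 0.0641. Over all 52 genes the absolute change was larger between R7-II and R7-I in 33 and between R7-III and R7-I in 19, a difference between steps that was not tested.

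Pcna, on chromosome 2 from 132249286 to 132253180 of mm10, encodes the sliding clamp and had the highest level of all 52 genes. It was at 742, 765 and 791 TPM in R7-I, 592, 614 and 598 in R7-II and 902, 887 and 923 in R7-III. All clones were set apart, by modest factors: the log2 fold change was -0.35 ± 0.0291 relative to R7-I, -0.59 ± 0.0291 relative to R7-III and, in R7-III relative to R7-I, 0.24 ± 0.0291 (adjusted p = 2.74e-06, 1.24e-07 and 4.61e-04, limma). Of the 8 genes of the clamp and its loaders, 6 were lower in R7-II than in R7-I, 8 were lower than in R7-III and 5 were higher in R7-III than in R7-I. The last count was 8 without R7-II replicate 1 or 2, where Dscc1, Rfc3 and Rfc4 were added, and the first was 8 with median-of-ratios scaling. Under that scaling higher calls between R7-II and R7-I also fell from 72.4% to 47.7% of all calls.

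The loaders open the clamp with energy from ATP and close it around DNA. RFC1 is the large subunit of the common loader, and DSCC1 and CHTF18 belong to an alternative loader that also serves cohesion of sister chromatids. Dscc1 changed most, at 10.0, 9.95 and 8.14 TPM in R7-I, 2.59, 5.09 and 4.69 in R7-II and 16.9, 15.5 and 17.5 in R7-III, with log2 fold changes of -1.05 ± 0.17 and -1.82 ± 0.17 in R7-II (adjusted p = 2.78e-04 and 6.17e-06, limma). R7-II replicate 1 was again the lowest. Rfc1 changed least, at 57.2, 58.7 and 59.4 TPM in R7-I, 51.0, 55.0 and 54.1 in R7-II and 71.9, 73.8 and 77.1 in R7-III, and its log2 fold change of -0.13 ± 0.0411 against R7-I did not pass (adjusted p = 0.0172, limma) while that of -0.47 ± 0.0411 against R7-III did (adjusted p = 3.83e-06, limma). Relative to Rfc1, Rfc3 stood at 0.98 to 1.14 in R7-I, 0.64 to 0.75 in R7-II and 1.05 to 1.09 in R7-III. Among the other loader genes, Rfc3 and Rfc4 had log2 fold changes of -0.70 ± 0.0782 and -0.61 ± 0.0633 in R7-II against R7-I, Rfc5 of -0.43 ± 0.0532 and Chtf18 of -0.53 ± 0.0735, and Rfc2 did not pass (-0.14 ± 0.0514).

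Replication protein A coats single-stranded DNA as a complex of 3 subunits. Rpa1, its large subunit, was the most abundant, at 104, 109.7 and 109 TPM in R7-I, 101, 104 and 105 in R7-II and 137, 138 and 142 in R7-III. R7-II and R7-I overlapped and R7-III lay above both. Its log2 fold change was -0.06 ± 0.0319 relative to R7-I (adjusted p = 0.147, limma), which became -0.23 and passed with median-of-ratios scaling, and -0.42 ± 0.0319 against R7-III (adjusted p = 1.34e-06, limma). Rpa2 was at 80.6, 88.7 and 80.9 TPM in R7-I, 64.1, 69.5 and 68.8 in R7-II and 114, 108 and 121 in R7-III and was lower in R7-II than in each other clone, with log2 fold changes of -0.30 ± 0.053 and -0.75 ± 0.053 (adjusted p = 4.88e-04 and 8.05e-07, limma). Of the 3 genes 2 were lower in R7-II than in R7-I, 3 than in R7-III, and 2 (Rpa1 and Rpa2) were higher in R7-III than in R7-I.

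Okazaki fragments, the short pieces of the lagging strand, are trimmed by the nuclease FEN1 and sealed by DNA ligase 1. Both genes were lower in R7-II in each comparison and higher in R7-III than in R7-I. Lig1, on chromosome 7 from 13277175 to 13311426 of mm10, was at 54.4, 63.7 and 62.1 TPM in R7-I, 32.4, 42.2 and 41.0 in R7-II and 108, 113 and 116 in R7-III, with log2 fold changes of -0.63 ± 0.0915, -1.53 ± 0.0915 and, for R7-III against R7-I, 0.89 ± 0.0915 (adjusted p = 1.24e-04, 3.05e-07 and 1.59e-04, limma). The clones were well separated. Fen1 was at 83.0, 91.6 and 85.8 TPM in R7-I, 51.7, 56.2 and 57.1 in R7-II and 118, 114 and 119.5 in R7-III, and the log2 fold change in R7-II was -0.65 ± 0.048 relative to R7-I and -1.08 ± 0.048 relative to R7-III (adjusted p = 1.16e-06 and 7.11e-08, limma). Of its annotated exon bases, 84.2% overlap Gm10143 or Tmem258 on the opposite strand, so the value of Fen1 is uncertain.

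Fork protection genes hold the polymerases and the helicase together and pass on the signal of a stalled fork. All 4 were lower in R7-II than in each of R7-I and R7-III, and 4 were higher in R7-III than in R7-I, or 3 without any 1 of the R7-I libraries or without R7-III replicate 1 or 3, where Tipin missed the threshold (adjusted p of 0.0107 to 0.0184, limma). Clspn, on chromosome 4 from 126556957 to 126594533 of mm10, encodes claspin, the mediator of checkpoint kinase 1, and had the lowest mean level of the 52. It was at 5.12, 6.61 and 5.74 TPM in R7-I, 1.37, 2.41 and 2.26 in R7-II and 14.7, 14.5 and 17.1 in R7-III. Even at these low values the clones did not overlap, and the mean was 7.66 times higher in R7-III than in R7-II and 2.65 times higher in R7-III than in R7-I. The log2 fold change was -1.19 ± 0.14, -2.46 ± 0.14 and 1.27 ± 0.14 in the 3 comparisons (adjusted p = 2.85e-05, 2.26e-07 and 2.47e-04, limma), and the pseudocount of 1 makes these values smaller than the ratios of means.

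Timeless and Tipin encode partners in 1 complex. Tipin, the more abundant, was at 126, 132 and 130.1 TPM in R7-I, 72.5, 85.3 and 84.7 in R7-II and 164, 157 and 169 in R7-III, with log2 fold changes in R7-II of -0.67 ± 0.0577 and -1.01 ± 0.0577 (adjusted p = 3.22e-06 and 2.35e-07, limma). Timeless was at 56.6, 56.6 and 54.5 TPM in R7-I, 42.3, 45.1 and 47.0 in R7-II and 68.8, 69.9 and 74.0 in R7-III, with -0.31 ± 0.046 and -0.65 ± 0.046 (adjusted p = 1.37e-04 and 8.21e-07, limma), the smallest changes of the group. Wdhd1, which links the helicase to polymerase alpha, stood at 38.4 ± 0.693, 25.0 ± 0.998 and 57.1 ± 2.71 TPM in R7-I, R7-II and R7-III (n = 3 libraries each, mean ± SD).

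Chromatin genes of the fork comprise Chaf1a and Chaf1b, subunits of the factor that deposits new histones behind it, and Hells, a remodelling ATPase known for its part in DNA methylation. All 3 were lower in R7-II than in each of R7-I and R7-III. All 3 were also higher in R7-III than in R7-I, but 0 passed there without R7-I replicate 1 (adjusted p of 0.0116 for Chaf1a, 0.0152 for Chaf1b and 0.0171 for Hells, limma) or without R7-III replicate 3 (0.01005, 0.0136 and 0.0149). Hells, on chromosome 19 from 38930262 to 38970470 of mm10, was at 88.9, 93.0 and 91.0 TPM in R7-I, 30.3, 37.4 and 40.1 in R7-II and 126, 124 and 129 in R7-III, and the gap lay mainly between R7-II and the other clones. R7-II had a log2 fold change of -1.32 ± 0.0797 relative to R7-I and -1.79 ± 0.0797 relative to R7-III (adjusted p = 3.03e-07 and 7.11e-08, limma).

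Chaf1a was at 43.6, 49.99 and 45.4 TPM in R7-I, 16.3, 23.0 and 21.3 in R7-II and 72.3, 72.8 and 78.7 in R7-III, with log2 fold changes of -1.17 ± 0.104 and -1.85 ± 0.104 (adjusted p = 4.18e-06 and 2.17e-07, limma), and shares 33.6% of its exon bases with Ubxn6 on the opposite strand. Chaf1b was at 21.5, 23.7 and 24.8 TPM in R7-I, 12.9, 14.9 and 17.9 in R7-II and 34.0, 35.8 and 37.9 in R7-III. It changed less, with log2 fold changes of -0.59 ± 0.0992 and -1.20 ± 0.0992 (adjusted p = 3.45e-04 and 2.55e-06, limma), and its clones did not overlap either. In all, 20 of the 52 genes share annotated exon bases with another gene, and those not named above share at most 19.1%.

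**Figure D4:**
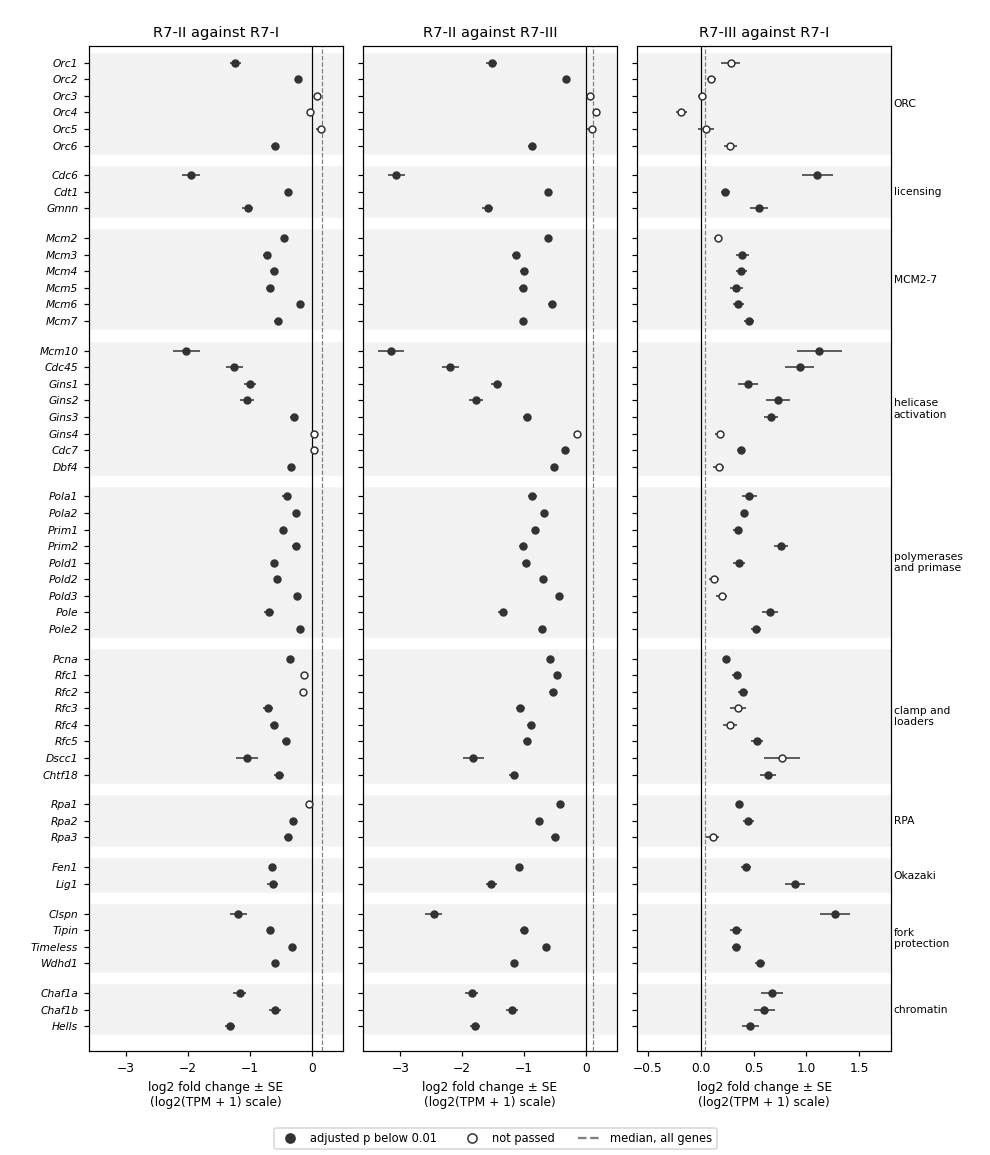
Log2 fold change ± standard error of each of the 52 replication genes from limma on log2(TPM + 1), 1 panel per comparison with its own axis range. Filled points passed the adjusted p of 0.01 and open points did not, the dashed line is the median of all genes tested, and in R7-II against R7-III 48 genes are filled and lie below 0, while Orc3, Orc4, Orc5 and Gins4 are open.

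Less abundant genes among the 52 tended to change more, weakly between R7-II and R7-I and more clearly between R7-III and R7-I. Mean levels over the 9 libraries ran from 7.76 TPM (Clspn) to 757 TPM (Pcna), with a median of 57.7 TPM and 11 genes above 100 TPM. Across genes, Pearson's r between the mean log2 level and the log2 fold change was 0.24 for the change from R7-I to R7-II, 0.34 for that from R7-III to R7-II and -0.44 for that from R7-I to R7-III (Spearman's rho 0.10, 0.27 and -0.40, n = 52 genes that share all libraries and a pseudocount that lowers the changes of the least abundant). The genes with the largest ratios between R7-III and R7-II, Cdc6, Mcm10 and Clspn, were at 14.2, 23.8 and 7.76 TPM on average. Between libraries of 1 clone, the median coefficient of variation over the 52 genes was 4.23% in R7-I, 7.64% in R7-II and 3.70% in R7-III. The highest values of single genes were 18.1%, 39.0% and 9.28%, so some genes varied far more, most of all in R7-II.

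Outside the 52, a list of 39 other replication genes, such as cyclins, initiation and checkpoint factors, RNase H2 subunits and topoisomerases, gave a less uniform picture. Of these, R7-II was lower than R7-I in 24 and higher in 3, and lower than R7-III in 27 and higher in 4. R7-III was higher than R7-I in 18 and lower in 1, Supt16. Of all genes tested, 15.5% passed as lower and 40.6% as higher in the first comparison, and 18% and 35.6% in the second. In the third, 6.96% passed as higher and 1.45% as lower. Higher calls were thus rarer among the 39 genes than among all genes in both R7-II comparisons. The median log2 fold changes of the 39 genes were -0.25, -0.55 and 0.22. The count of 18 was 9 without R7-I replicate 1 or R7-III replicate 2 or 3, and the count of 4 was 1 without R7-II replicate 1 or R7-III replicate 1 or 2, and 2 without R7-III replicate 3. The most negative changes of R7-II against R7-III were those of Ccna2, the cyclin of S phase and later stages, at -2.90, Top2a, a topoisomerase that untangles sister DNA, at -2.58, and Ccne2, a cyclin of S phase entry, at -2.14. On the other side stood Pold4, the smallest subunit of polymerase delta, at 0.54, Atrip, the partner of the checkpoint kinase ATR, at 0.28, Smarcal1, which reverses stalled forks, at 0.25, and Pole4, a histone-fold subunit of polymerase epsilon, at 0.14. These last 4 passed on the TPM scale, while with median-of-ratios scaling their log2 fold changes became 0.41, 0.16, 0.14 and 0.018 and only Atrip passed (adjusted p = 0.00882, limma).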

How the data were processed

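The 9 RNA-seq libraries were unstranded. The authors used RSEM 1.2.11 for both alignment and gene-level counting against RefSeq genes on mm10, and the values were deposited as TPM per gene symbol. The aligner program run within RSEM was not given in the sources used here. A typical number of reads is stated in the study's methods, but TPM is scaled to a fixed total, so the exact depth of each library and its counting error are unknown. The authors' own test was DESeq2 1.8.1 on counts that were not used here.

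Values were converted to log2(TPM + 1) for the 11330 of 24060 genes whose maximum TPM exceeded 1. A single limma fit (version 3.58.1, R 4.3.3, eBayes with a mean-variance trend) covered all 9 libraries, and the threshold was a Benjamini-Hochberg adjusted p of 0.01. The fit was first run on simulated data, where it recovered 57 of 67 genes changed 1.5-fold and 63 of 67 changed 2-fold. At 4-fold it recovered 65 of 66, and there were 0 false calls. Only a small part of the 11330 genes was changed there, in both directions equally. The simulation therefore does not cover data such as these, in which far more genes passed and the median was shifted. Fold changes on this scale understate those of low genes. Library correlations of log2 levels across genes were 0.992 to 0.997 within clones and 0.959 to 0.991 between them.

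The members, roles and gene lists were chosen with earlier results of these data known, so no test was made over a list. For each role, the library values are printed for the most abundant gene and for the genes with the most and the least negative change between R7-II and R7-III, and would be for any gene passing in the opposite direction, of which there were 0; other genes were added after their values were seen, mostly as partners of these. Positions and promoters came from RefSeq (GRCm38.p6, the build of mm10) and exon overlaps from GENCODE M21. Protein features were planned but not run, since no protein sequences were used here. The alternatives changed the pseudocount, filter, scaling, moderation, threshold or libraries of the fit, added the replicate number as a block, or left out each library in turn.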

Additional observations from a re-analysis of the deposited data

How the results depend on the processing

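With each library left out in turn, 40 to 44 of the 52 genes passed as lower in R7-II than in R7-I, 48 to 49 as lower than in R7-III, and 24 to 41 as higher in R7-III than in R7-I, the lowest of these without R7-I replicate 1; the medians lay between -0.58 and -0.48, -0.98 and -0.91, and 0.37 and 0.41. The share of all genes that passed in each alternative run is not given here. With a library left out, higher calls made up 71.5% to 73.3% of all calls between R7-II and R7-I. The range was 64.9% to 67.7% between R7-II and R7-III and 81.1% to 85.5% between R7-III and R7-I. Over every alternative run, 39 of the 44, 48 of the 48 and 24 of the 37 genes kept their call. The median between R7-II and R7-I was -0.71 with median-of-ratios scaling and -0.63 with quantile normalization, that between R7-II and R7-III -1.07 with median-of-ratios scaling and -0.86 with a pseudocount of 5, which lowers fold changes by construction, and that between R7-III and R7-I 0.34 with median-of-ratios scaling. At an adjusted p of 0.05, Orc4 (1 gene) passed as more abundant in R7-II than in R7-III and as less abundant in R7-III than in R7-I. E2F letters stood in 40.5% of the promoters, in 90.5% with the shorter core CGCGC or GGCGC (76.4% of the tested genes) and in 23.8% with the bases before the start alone.

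Small changes that turned sign were those of R7-II against R7-I for Cdc7 (-0.13 with median-of-ratios scaling and -0.20 with quantile normalization, where it passed, adjusted p = 0.00393 from limma, against 0.0203 and more in all other alternatives), Gins4 (-0.14, -0.11, and -0.0079 without R7-I replicate 3 in a range up to 0.072 over the libraries left out), Orc3 (-0.089 and -0.13), Orc5 (-0.033 and -0.052) and Orc4 (0.016 without R7-I replicate 2 in a range down to -0.061), those against R7-III for Orc3 (-0.052 and -0.080) and Orc5 (-0.034 and -0.057), and that of R7-III against R7-I for Orc3 (-0.036 and -0.046). The cause was not tested. The replicate numbers did not pair the libraries, since the correlations of same-numbered libraries' deviations lay between -0.045 and 0.089 and 3 of 9 libraries correlated best with their own number; with the replicate number as a block the counts were 43, 48 and 36.

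The study states a typical read number but TPM keeps no depth of each library, so low values such as those of Clspn, Cdc6 and Dscc1 in R7-II carry a counting error that could not be given. Promoter letters could be searched in 42 of the 52 genes.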
